A study of Mus musculus with 9 samples.

Results

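Tmem119, Mamdc2, Ryk and Ermp1 are 4 genes whose mean expression was lower in BaF3 cells carrying either RET fusion than in BaF3 cells carrying BCR-ABL. They are 4 of 19938 genes measured with Affymetrix MouseGene 1.0 ST arrays, and they were chosen by their group means on these arrays, the BCR-RET and FGFR1OP-RET means both lying below the BCR-ABL mean. The data set holds 9 arrays of BaF3, a mouse haematopoietic cell line that depends on interleukin-3, with 3 arrays for each retrovirally introduced fusion kinase. The groups are BCR-RET, FGFR1OP-RET and BCR-ABL, and the infected cells of every group were sorted by the EGFP fluorescence of the vector, which all groups therefore share. RET, a receptor tyrosine kinase, is joined to BCR or to FGFR1OP in the first and second fusion, and BCR-ABL is the kinase of chronic myeloid leukaemia. Nothing in the labels ties the 3 arrays of a fusion to independent infections or cultures, and p-values therefore reflect array-to-array spread that may be technical only. Cells without a fusion were not analysed here, so lower means lower than with BCR-ABL and not lower than in the parental line.

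The 4 genes encode proteins of the cell surface and the secretory pathway with unlike roles. Tmem119 encodes a membrane protein that promotes osteoblast differentiation in mice and is used as a marker of microglia. Ryk encodes a receptor of the tyrosine kinase family whose kinase domain lacks activity and whose outer part binds Wnt proteins. Mamdc2 encodes a secreted proteoglycan with MAM domains, a fold of adhesion and matrix proteins. Ermp1 encodes a metallopeptidase of the endoplasmic reticulum in the M28 family, known in the rat for its part in building ovarian follicles.

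The start regions of Ryk and Ermp1 are shown because these were the 2 of 4 genes with an entry in the RefSeq promoter table (GRCm38.p6), and because the genes differ in which RET fusion has the lower level. Each line gives the 250 bases before the annotated start, 5′ to 3′ on the strand of the gene. Capitals mark matches to the motifs searched on both strands, which were TTCNNNGAA (the STAT motif), CACGTG (an E-box), TGACGTCA (the CRE), CCGGAAGT (an ETS motif), GGGCGG (the GC box) and TATAAA (the TATA box).
Ryk, chr9:102834670-102834919, plus strand: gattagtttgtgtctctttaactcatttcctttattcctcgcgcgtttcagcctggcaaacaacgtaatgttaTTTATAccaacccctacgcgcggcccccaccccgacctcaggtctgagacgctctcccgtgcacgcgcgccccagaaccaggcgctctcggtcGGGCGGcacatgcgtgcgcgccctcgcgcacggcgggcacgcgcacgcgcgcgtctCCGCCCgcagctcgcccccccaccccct
Ermp1, chr19:29648416-29648665, minus strand: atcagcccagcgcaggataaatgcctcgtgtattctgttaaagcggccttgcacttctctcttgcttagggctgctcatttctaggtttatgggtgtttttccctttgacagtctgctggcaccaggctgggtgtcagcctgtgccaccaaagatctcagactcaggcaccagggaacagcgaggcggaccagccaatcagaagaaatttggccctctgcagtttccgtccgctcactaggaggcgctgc

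In the window that runs on to 50 bases after the start, Ryk held 3 matches to the GC box and 1 to the TATA box. Ermp1 held 1 match to the GC box, which begins at base 34 after the start. The matches of Ryk begin 177 (TATA box), 84 and 28 bases (GC boxes) before the start and at base 10 after it, and none overlaps another. The TATA letters of Ryk read on the strand opposite to the gene, and whether they act as a TATA box was not tested. Of 32851 promoter windows of the same length in the table, 35.7% held the GC box letters and 13.6% the TATA box letters on either strand. The STAT, E-box, CRE and ETS letters were in neither window, against 8.30%, 7.15%, 1.79% and 3.89% of all windows in that order. The Ryk window was 67.7% G and C with 42 CpG dinucleotides, and the Ermp1 window was 58.3% G and C with 14, against a median of 52.7% G and C over all windows.

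Values are log2, made by the authors with gene-level RMA, a method that corrects background, gives all arrays the same distribution and summarises the probes of a gene. Levels are compared between groups and never between genes, since each probe set responds in its own way. Tmem119 (probe set 10532741) was at 10.46, 10.52 and 10.30 in BCR-RET cells, at 10.92, 11.07 and 11.07 in FGFR1OP-RET cells and at 11.97, 11.92 and 11.78 in BCR-ABL cells, in the order of the replicate numbers. The 3 groups formed separate steps with no overlap, lowest with BCR-RET and highest with BCR-ABL. Means were 10.43 ± 0.12, 11.02 ± 0.09 and 11.89 ± 0.10 (log2, SD, n = 3 each). The level was thus 2.76-fold lower with BCR-RET and 1.83-fold lower with FGFR1OP-RET than in BCR-ABL cells, with log2 differences of -1.46 and -0.87. In bulk RNA, fewer cells with a transcript and less of it in each cell cannot be told apart. Replicates 2 and 3 of FGFR1OP-RET carry the same deposited value.

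Ermp1 (probe set 10466947) repeated the order of Tmem119 over a smaller range. It was at 12.53, 12.65 and 12.46 in BCR-RET cells, at 12.73, 12.79 and 12.76 in FGFR1OP-RET cells and at 13.29, 13.41 and 13.34 in BCR-ABL cells. Again no group overlapped another, and the array numbered 2 was the highest of each group. The means of 12.54 ± 0.10, 12.76 ± 0.03 and 13.35 ± 0.06 put Ermp1 1.74-fold lower with BCR-RET and 1.50-fold lower with FGFR1OP-RET than with BCR-ABL (log2 differences -0.80 and -0.58, n = 3 each).

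Mamdc2 (probe set 10466712) had the widest spread of the 4 genes. It was at 8.39, 8.51 and 8.45 in BCR-RET cells, at 8.55, 8.66 and 8.95 in FGFR1OP-RET cells and at 9.13, 9.65 and 9.67 in BCR-ABL cells. The RET arrays all lay below the BCR-ABL arrays, and the array numbered 1 was the lowest of each group. Its means were 8.45 ± 0.06, 8.72 ± 0.21 and 9.48 ± 0.30, so that the level was 2.05-fold lower with BCR-RET and 1.70-fold lower with FGFR1OP-RET than with BCR-ABL (log2 differences -1.04 and -0.76, n = 3 each). Without BCR-ABL replicate 1 these log2 differences were -1.21 and -0.94.

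Ryk (probe set 10588243) was the gene with another order, lowest with FGFR1OP-RET. It was at 7.46, 7.65 and 7.65 in BCR-RET cells, at 7.15, 7.08 and 7.21 in FGFR1OP-RET cells and at 8.07, 8.10 and 8.36 in BCR-ABL cells. The 3 groups were separate here too, and the array numbered 3 was the highest of each group. With means of 7.59 ± 0.11, 7.14 ± 0.06 and 8.18 ± 0.16, Ryk was 1.50-fold lower with BCR-RET and 2.04-fold lower with FGFR1OP-RET than with BCR-ABL (log2 differences -0.59 and -1.03, n = 3 each). Its 9-array mean of 7.64 was below 8.19, the median of such means over all genes. Whether so low a level narrows its folds was not tested. The gene table lists a pseudogene, Ryk-ps1, and whether its transcripts reach the Ryk probes was not tested.

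**Figure D1:**
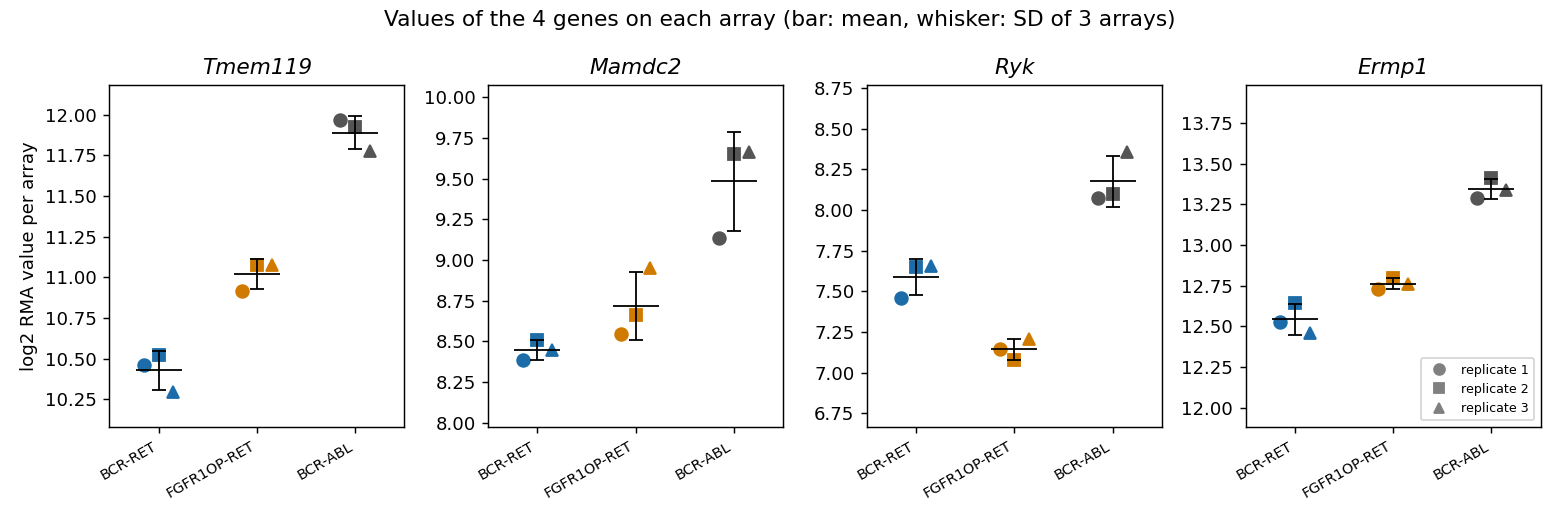
Log2 RMA value of each gene (vertical axis, spanning the same number of log2 units in each panel) on the 9 arrays, by fusion (horizontal axis), with replicate numbers as marker shapes, group means as bars and SD as whiskers. All RET arrays lie below all BCR-ABL arrays in the 4 panels, and the order of the RET fusions is turned round for Ryk.

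These differences from BCR-ABL chose the genes, so they are a description and no test is given for them. Both comparisons also share the 3 BCR-ABL arrays. A mean lower in both RET fusions was found for 5048 genes, 25.3% of all. All RET arrays lay below all BCR-ABL arrays for each of the 4 genes and for 1.55% of all genes. For the 4 genes this is no separate result, since they were chosen by the means of these same arrays. At an adjusted p under 0.05 in the limma fit, 0.587% of genes differed between BCR-RET and BCR-ABL and 0.216% were lower, and 1.02% differed between FGFR1OP-RET and BCR-ABL and 0.231% were lower. A block for the replicate number, by which arrays of BCR-RET and BCR-ABL deviated together, took the genes passed in that comparison to 362, against 117 without it. Ordered by the smaller of the 2 decreases in log2 value, Tmem119 stood at place 1, Mamdc2 at place 3, Ryk at place 6 and Ermp1 at place 7. The genes between them were Gzmc, a granzyme (-0.86 and -1.11 for BCR-RET and FGFR1OP-RET against BCR-ABL), Hbegf, an EGF-like growth factor (-0.80 and -0.66), and Pdp1, a phosphatase that activates pyruvate dehydrogenase (-0.99 and -0.59). Just outside, at place 8, was St3gal2 (-0.62 and -0.56), named after its value was seen.

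The choice did not use the difference between the RET fusions, although it used the same RET arrays. Tmem119 was lower in BCR-RET cells than in FGFR1OP-RET cells by 0.59 on the log2 scale, or 1.51-fold (95% interval of the log2 difference -0.77 to -0.42, SE 0.08, adjusted p = 0.00802, limma, n = 3 each). Ryk was higher in BCR-RET cells than in FGFR1OP-RET cells, by 0.45 or 1.36-fold (0.25 to 0.64, SE 0.09, adjusted p = 0.0463). The difference of Ermp1 was -0.22 (-0.35 to -0.08) and did not pass after adjustment (adjusted p = 0.145, unadjusted p = 0.00509), and that of Mamdc2 was -0.27 (-0.60 to 0.06, adjusted p = 0.420). Thus 2 of the 4 genes passed in opposite directions, against 1.33% of all genes in either direction. The groups did not overlap for any of the 4 genes, against 15.3% of all genes. Since the 4 genes were chosen for large differences on the same RET arrays, neither count can be read as an excess over all genes.

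The Ryk call was narrow. It held without BCR-RET replicate 1 or BCR-ABL replicate 3, and it ended without any 1 of the other 7 arrays, with adjusted p between 0.0619 and 0.171. It also ended with all probe sets tested (adjusted p = 0.101), with arrays centred on their medians (0.0804) and with the RET arrays fitted alone (0.0919). The Tmem119 call held without 8 of the 9 arrays in turn and reached 0.0505 when FGFR1OP-RET replicate 2, one of the arrays with the repeated value, was left out, and 0.0607 with the RET arrays fitted alone. The directions of all 4 genes stayed the same under every alternative run.

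**Figure D2:**
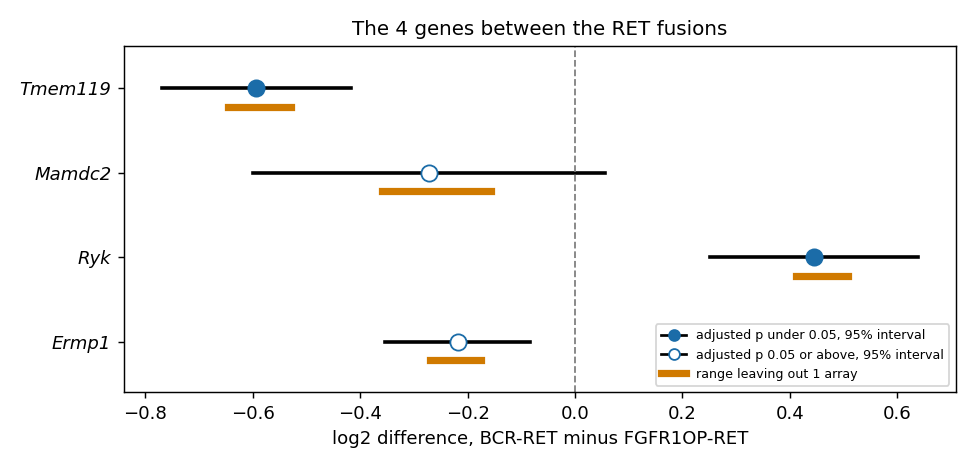
Log2 difference of each gene, BCR-RET minus FGFR1OP-RET (horizontal axis), with its 95% interval from limma (black line) and the range when 1 array is left out (orange bar). Filled circles mark an adjusted p under 0.05: Tmem119 at -0.59 and Ryk at 0.45 lie on opposite sides of 0, and the interval of Mamdc2 (-0.60 to 0.06) spans it.

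Genes with the most similar pattern were taken by Pearson's r over the 9 arrays among 1682 genes with an SD of at least 0.2. These r values describe likeness only, since the arrays fall into the 3 groups that chose the 4 genes, and they carry no test. Tmem119 was most like Ermp1 (r = 0.979), then Etv5, an ETS transcription factor gene (0.977), and Lat2, an adaptor of immune receptors (0.969). Ermp1 was most like Hbegf (0.989), Tmem119 (0.979) and Etv5 (0.976), and Mamdc2 was most like Pdp1 (0.961), Abhd17c (0.955) and Etv5 (0.954). Etv5 thus stood among the nearest 3 genes of Tmem119, Mamdc2 and Ermp1, and it was lower than in BCR-ABL cells by log2 differences of -0.55 with BCR-RET and -0.35 with FGFR1OP-RET. Ryk had another set, led by the tetraspanin gene Tspan8 (r = 0.981), the chemokine receptor gene Ccr4 (0.968) and Fam20a, which encodes a pseudokinase of the secretory pathway (0.953). Tspan8 (-0.39 and -0.81), Ccr4 (-0.43 and -1.005) and Fam20a (-0.30 and -0.64) all had the larger decrease with FGFR1OP-RET. Between members, r was 0.903 for Tmem119 with Mamdc2 and 0.943 for Mamdc2 with Ermp1, while Ryk had 0.614 with Tmem119, 0.738 with Mamdc2 and 0.730 with Ermp1.

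Other genes of the Wnt pathway gave no call unless a block for the replicate number was fitted. Wnt proteins bind Frizzled receptors with Lrp5 or Lrp6 to stabilise beta-catenin, and Ryk, Ror2 and Ptk7 take part in branches outside that route. Over all Wnt lists, 67 genes other than Ryk were measured and none passed in any of the 3 comparisons by limma. At an unadjusted p under 0.05, 8 differed between BCR-RET and BCR-ABL, 1 between FGFR1OP-RET and BCR-ABL and 7 between BCR-RET and FGFR1OP-RET. The share of all genes at this unadjusted threshold was not counted. Such counts, here and for the other lists and the neighbours, therefore cannot be read as an excess. Low unadjusted p-values were common between the RET fusions, where Mamdc2 (limma, unadjusted p = 0.0930) stood at place 4412 of 19938 genes. The log2 differences of the 67 genes from BCR-ABL ran from -0.23 (Myc) to 0.36 (Fzd4) in BCR-RET cells and from -0.15 (Ctnnb1, the beta-catenin gene) to 0.14 (Dvl2) in FGFR1OP-RET cells. Their medians were 0.03 and 0.01, against 0.03 and 0.00 over all genes. Fzd4, a Frizzled receptor gene, was at 9.62 in BCR-RET cells, 9.34 in FGFR1OP-RET cells and 9.26 in BCR-ABL cells. Its difference of 0.36 between BCR-RET and BCR-ABL had an adjusted p of 0.0671, and of 0.0331 with the replicate number as a block. Between BCR-RET and FGFR1OP-RET the block passed Fzd4 (0.28, adjusted p = 0.0467) and Lrp5 (-0.23, adjusted p = 0.0386). The co-receptor genes Lrp5 and Lrp6 had log2 differences from BCR-ABL of -0.17 and -0.08 in BCR-RET cells and of 0.07 and -0.06 in FGFR1OP-RET cells. The 67 include 12 targets of beta-catenin. Most of the 67 had a 9-array mean below 8.19, the median over all genes (Ptk7 at 7.79), while others were above it (Lrp5 at 11.14). Whether genes at such low levels could show a fall was not tested. Of 7 receptor pseudokinases other than Ryk none passed either, with 2, 1 and 0 at an unadjusted p under 0.05 in the same order of comparisons.

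The relatives of Mamdc2 and Ermp1 gave few calls. None of 14 other genes on the MAM domain list passed in any comparison, with 1 at an unadjusted p under 0.05 between BCR-RET and BCR-ABL and none in the other comparisons. Their log2 differences from BCR-ABL lay between 0.01 (Mdga1) and 0.15 (Ltk) in BCR-RET cells and between -0.08 (Npnt) and 0.14 (Mamdc4) in FGFR1OP-RET cells. That each listed gene, Ltk among them, encodes a MAM domain was not checked against protein sequences. Most of the 14 had a 9-array mean below 8.19, the median over all genes (Npnt at 7.65), while Mamdc4 was at 8.53. Of 10 other genes of the M28 family, 1 rose in both RET fusions and none fell. This was Tfr2, which encodes a transferrin receptor with a peptidase-like fold and rose by 0.48 with BCR-RET (adjusted p = 0.0319) and by 0.41 with FGFR1OP-RET (adjusted p = 0.0446) against BCR-ABL. The first of these calls ended without 7 and the second without 8 of the 9 arrays in turn (highest adjusted p = 0.177 and 0.215, both without BCR-ABL replicate 2), so it rests on a narrow margin. Tfrc, the main transferrin receptor gene, differed from BCR-ABL by 0.06 with BCR-RET and by -0.18 with FGFR1OP-RET, and Ncln, an endoplasmic reticulum member, by -0.12 and 0.11, with no call.

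Of 18 genes of the endoplasmic reticulum stress response, the compartment in which Ermp1 works, Ern1 was the 1 that passed without a block for the replicate number. Ern1 encodes IRE1, a sensor of unfolded proteins. It was at 10.97 in BCR-RET cells, 11.64 in FGFR1OP-RET cells and 10.92 in BCR-ABL cells. It rose in FGFR1OP-RET cells against BCR-ABL by 0.73 (adjusted p = 0.00182) and was lower in BCR-RET than in FGFR1OP-RET cells by 0.68 (adjusted p = 0.00237), and both calls held without each array in turn. Its difference between BCR-RET and BCR-ABL was 0.05 (adjusted p = 0.793), so Ern1 was not ordered like Ermp1. Ddit3, a stress-induced transcription factor gene, differed by 0.46 between BCR-RET and BCR-ABL, with an adjusted p of 0.367, and of 0.0150 when the replicate number was a block. The block also passed Ddit3 between FGFR1OP-RET and BCR-ABL (0.33, adjusted p = 0.0456). Between BCR-RET and FGFR1OP-RET it passed Edem1 of the same list (-0.35, adjusted p = 0.0190).

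Genes of the cell types in which Tmem119 is known were read beside it. Of 12 other microglia genes, none passed in any comparison. Over all genes, 0.587% passed between BCR-RET and BCR-ABL, 1.02% between FGFR1OP-RET and BCR-ABL and 1.33% between the RET fusions, so 12 genes with no call are near the background. At an unadjusted p under 0.05 there were 2 between BCR-RET and BCR-ABL, 1 between FGFR1OP-RET and BCR-ABL and 0 between the RET fusions. Their log2 differences from BCR-ABL ran from -0.03 (Trem2) to 0.18 (Fcrls) in BCR-RET cells and from -0.06 (P2ry12) to 0.17 (Olfml3) in FGFR1OP-RET cells. Most of the 12 had a 9-array mean below 8.19, the median over all genes (P2ry12 at 6.14, Fcrls at 6.59), while Selplg was at 11.43. Whether genes at such low levels could show a fall was not tested. Of 15 genes of the bone morphogenetic protein and osteoblast list, Id2, an inhibitor of helix-loop-helix factors, was lower in BCR-RET than in FGFR1OP-RET cells by 0.46 (adjusted p = 0.0420), the direction of Tmem119, and the other comparisons had no call in that list (3 genes for BCR-RET and 1 for FGFR1OP-RET against BCR-ABL at an unadjusted p under 0.05). The Id2 call ended without any 1 of 8 arrays (highest adjusted p = 0.158).

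**Figure D3:**
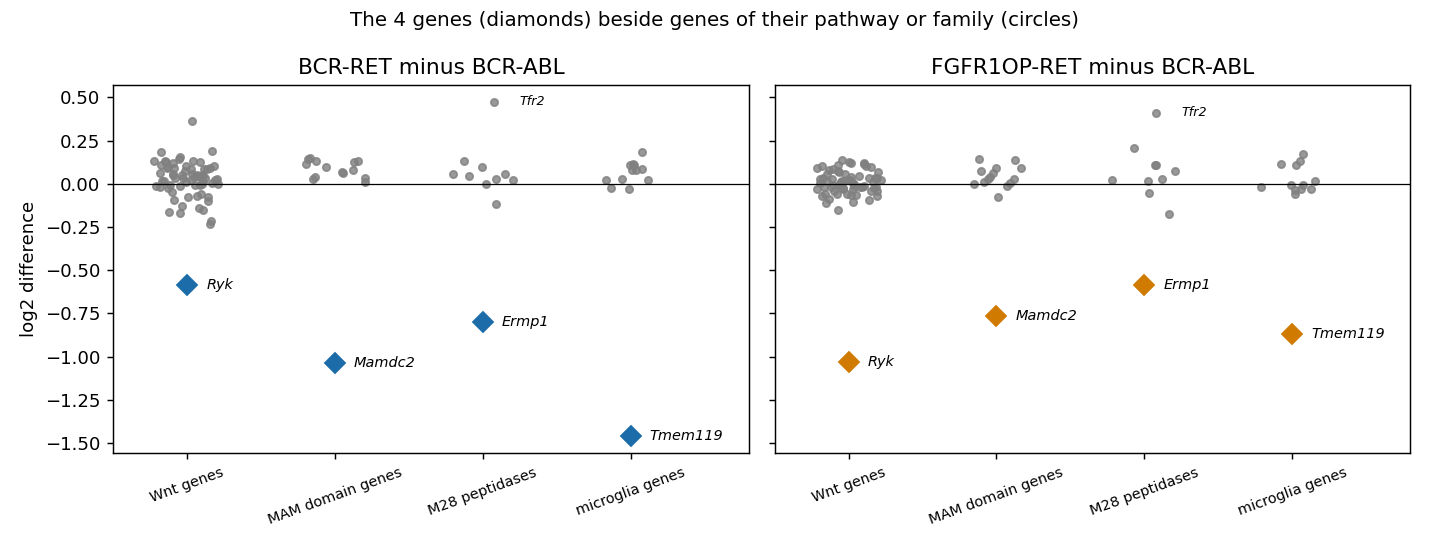
Log2 difference from BCR-ABL (vertical axis) in BCR-RET cells (left) and FGFR1OP-RET cells (right) for the 4 genes (diamonds) and the other measured genes of their pathway, family or marker list (circles, spread sideways for legibility). Every circle lies at -0.23 or higher, while the diamonds, which were chosen for low values, lie between -0.58 and -1.46.

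Genes next to the 4 on their chromosomes were read as well, the nearest 3 measured protein-coding genes on each side. In the RefSeq table Mamdc2 and Ermp1 both lie on chromosome 19, Tmem119 on chromosome 5 and Ryk on chromosome 9. Of the 24 neighbours, 0 passed between BCR-RET and BCR-ABL, 1 between FGFR1OP-RET and BCR-ABL and 0 between the RET fusions (limma; 2, 3 and 6 at an unadjusted p under 0.05). When the replicate number was fitted as a block, 2 of the 24 passed between BCR-RET and BCR-ABL, namely Cd274 near Ermp1 (0.34, adjusted p = 0.0173) and Smc5 next to Mamdc2 (-0.27, adjusted p = 0.0341; 0.0705 without the block), the second in the direction of Mamdc2. The neighbours of Tmem119 differed from BCR-ABL by -0.18 to 0.09 in BCR-RET cells and by -0.14 to 0.15 in FGFR1OP-RET cells, and Selplg, the next gene on one side, by 0.02 and -0.03. Those of Mamdc2 lay between -0.27 and 0.08 in BCR-RET cells and between -0.14 and 0.09 in FGFR1OP-RET cells. Those of Ryk lay between -0.22 and 0.23 and between -0.24 and 0.11, in the same order of fusions. The neighbour that passed without the block was Cd274, near Ermp1, which encodes the checkpoint ligand PD-L1. It differed from BCR-ABL by 0.34 in BCR-RET cells (adjusted p = 0.0574) and rose in FGFR1OP-RET cells by 0.33 (adjusted p = 0.0446), opposite to Ermp1. The call ended without any 1 of 8 arrays (highest adjusted p = 0.188) and with all probe sets, an intensity trend or the arrays of the compared groups alone (0.113, 0.058 and 0.115).

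**Figure D4:**
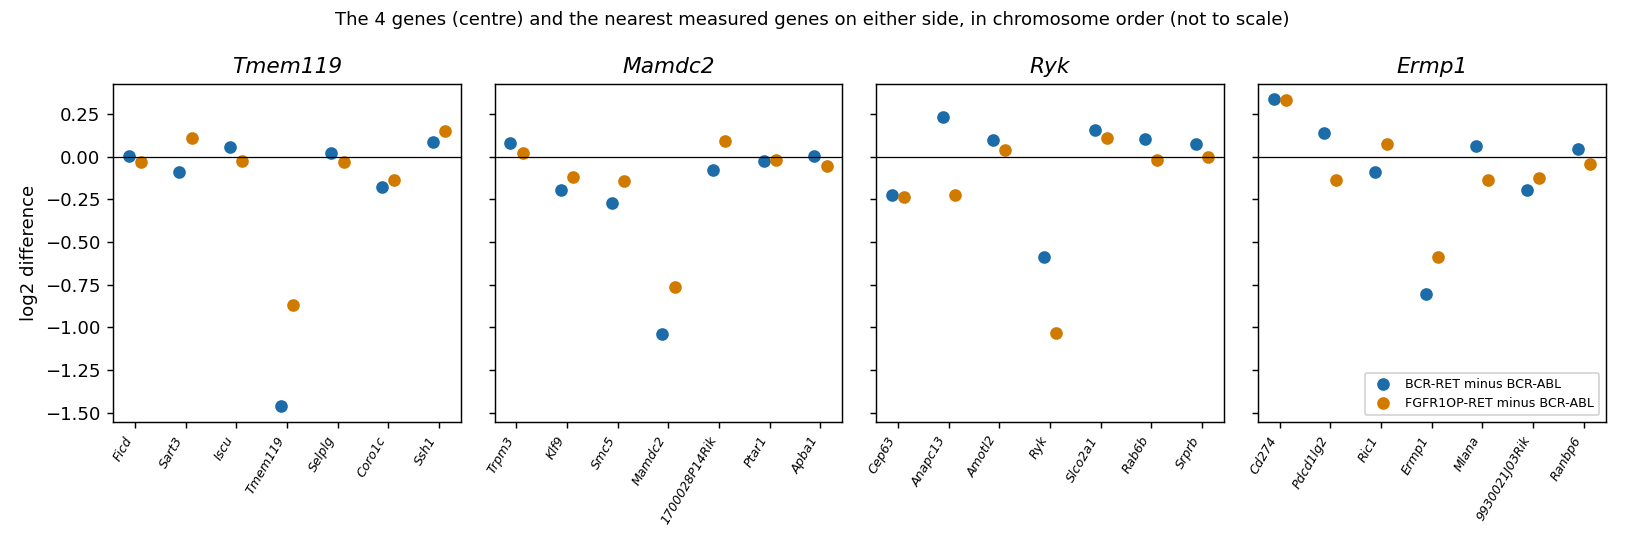
Log2 difference from BCR-ABL (vertical axis) for each of the 4 genes, in the centre of its panel, and the nearest 3 measured protein-coding genes on each side in chromosome order (horizontal axis, not to scale), in BCR-RET (blue) and FGFR1OP-RET (orange) cells. The 24 neighbours lie between -0.27 and 0.34, and the central genes at -0.58 or lower.

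Over the whole series, any 2 arrays of a fusion correlated with r of 0.993 to 0.996 and any 2 of different fusions with 0.990 to 0.996. Marker lists were read as the mean log2 value of their measured genes on each array. The 12 measured monocyte and macrophage genes averaged 8.43 to 8.50 on BCR-RET arrays, 8.61 to 8.92 on FGFR1OP-RET arrays and 8.25 to 8.33 on BCR-ABL arrays, and 3 of the 12 rose in FGFR1OP-RET against BCR-ABL. These were the receptor genes Cd14 (1.06) and Fcgr1 (0.57) and the perforin-like gene Mpeg1 (1.01), whose calls ended without 3, 7 and 2 of the 9 arrays in turn (highest adjusted p = 0.0971 without BCR-ABL replicate 2 for Cd14, and 0.147 and 0.0597 without BCR-ABL replicate 3 for Fcgr1 and Mpeg1). Between the RET fusions 2 of the 12 passed, both lower in BCR-RET than in FGFR1OP-RET cells as Tmem119 was, namely Cd14 by 1.21 (adjusted p = 0.00775) and Mpeg1 by 1.16 (adjusted p = 0.00591). Both of these calls held without each array in turn and ended with the RET arrays fitted alone (0.0780 and 0.0622). The mean of the list was thus lowest in BCR-ABL cells, where the 4 genes were highest. Its genes did not all share that order. Between BCR-RET and BCR-ABL none of the 12 passed, and log2 differences ran from -0.15 (Cd14) to 0.94 (Lyz2, limma adjusted p = 0.297). The part of the list in the values of the 4 genes was not tested. The 12 measured B lymphoid genes, markers of the lineage BaF3 is drawn from, averaged 7.01 to 7.04, 6.92 to 7.02 and 6.92 to 6.95 on the arrays of the groups in the same order, the 9 mast cell and basophil genes 7.89 to 8.12, 7.89 to 8.11 and 7.88 to 8.07, and the 9 stromal genes 7.36 to 7.48, 7.33 to 7.42 and 7.35 to 7.41. No gene of these last 3 lists passed in any comparison (limma; between 0 and 2 of each list at an unadjusted p under 0.05). The mast cell and basophil mean covers unlike genes. Between BCR-RET and FGFR1OP-RET, Cpa3 differed by 0.99 (adjusted p = 0.218) and Mcpt8 by -0.59 (adjusted p = 0.610). The SD of Mcpt8 in BCR-RET cells was 0.89. Detection calls were not used here, so a marker cannot be called absent. Of the fusion partner genes, Abl1 was lower with BCR-RET than with BCR-ABL by 0.46 (adjusted p = 0.0219). That call ended without 5 of the 9 arrays in turn (highest adjusted p = 0.127, without BCR-ABL replicate 2). It also ended with all probe sets (0.0608) and with the 2 groups fitted alone (0.0693). Ret, Bcr and Cep43 passed in no comparison without a block for the replicate number. With the block, Bcr was lower in FGFR1OP-RET than in BCR-ABL cells (-0.43, adjusted p = 0.0143). Whether the introduced fusion sequences reach these probes was not tested.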

How the data were processed

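The deposited values are log2, computed by the authors with gene-level RMA in Affymetrix Expression Console, per the labels and the submitters' processing notes. Software version, annotation and build were not given in the sources used here. The platform annotation gave 1 symbol to 21789 of the 35557 probe sets, several to 1621 and none to 12147. Probe sets with 1 symbol were used, keeping the highest 9-array mean per gene, which left 19938 genes. Each of the 4 genes had 1 probe set. Symbols and gene order came from a RefSeq table of GRCm38.p6, which changed 0 symbols; 91 identifiers were not in it.

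Group means were fitted with limma 3.58.1 in R 4.3.3 over all 9 arrays, with 0.05 as the threshold on Benjamini-Hochberg adjusted p over all genes. The test was checked on simulated data. Precision is limited by 3 arrays a group. The 4 genes and the gene lists were chosen with earlier results of these data known. Named genes are the 4, the 3 most similar genes to each, the 5 lowest in both RET fusions, and list genes past the threshold or with the highest means. Neighbouring genes, the gene next outside, genes named as the ends of a range, Ptk7, Ddit3 and Edem1 were added after the data were seen.

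Deviations from group means correlated across genes between same-numbered BCR-RET and BCR-ABL arrays (r = 0.617, 0.155 and 0.367 for numbers 1, 2 and 3). All exceed 0.1, so the numbers may pair the arrays of that comparison. Between FGFR1OP-RET and BCR-ABL arrays r was 0.382, -0.128 and 0.400. Number 2 is below 0.1 there, so blocked calls between FGFR1OP-RET and BCR-ABL rest on a pairing that is not settled. The fit reported stays the one without a block. Between BCR-RET and BCR-ABL a block gave 362 genes in place of 117. Blocked values are given where they were seen to change a call. For the marker lists and the neighbours as wholes, the block was read between BCR-RET and BCR-ABL only. Alternatives were fits of 2 groups alone, the block, an intensity trend, leaving out dim genes, averaged probe sets, all probe sets, median centring and leaving out each array.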

Additional observations from a re-analysis of the deposited data

How the results depend on the processing

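The log2 differences of the 4 genes from BCR-ABL moved by less than the SD of the arrays under the 7 other settings and without each array in turn (Ryk under 6, since it was below the limit for dim genes). Between BCR-RET and FGFR1OP-RET, Mamdc2 stayed without a call throughout. With the 2 groups fitted alone Tmem119 (-0.59, adjusted p = 0.0607) and Ryk (0.45, 0.0919) lost theirs, and Ryk also with all probe sets (0.45, 0.101) and with centred arrays (0.41, 0.0804). Ermp1 (-0.22) had an adjusted p of 0.0464 with the replicate number as a block. In that comparison same-numbered arrays correlated with r of 0.498, -0.152 and 0.410. Number 2 is below the limit of 0.1, so whether the numbers pair these arrays is not settled. Without 1 array the difference ran from -0.65 to -0.53 for Tmem119 and from 0.41 to 0.51 for Ryk. For BCR-RET against FGFR1OP-RET, 265 genes passed, with 34 for the 2 groups alone, 1135 with the block, 101 with all probe sets and 86 to 194 without 1 array. For BCR-RET against BCR-ABL the numbers were 117, 56, 362, 73 and 28 to 114 in the same order. For FGFR1OP-RET against BCR-ABL they were 203, 94, 576, 121 and 70 to 185. Of 131 listed pathway, family and fusion partner genes other than the 4, 2 passed in each comparison. For BCR-RET against FGFR1OP-RET there were 1, 5, 1 and 1 to 2 in the same settings. For BCR-RET against BCR-ABL there were 0, 4 (Ddit3, Abl1, Tfr2 and Fzd4), 0 and 0 to 2, and 1 with centred arrays. For FGFR1OP-RET against BCR-ABL there were 1, 4, 1 and 1 to 2, and 1 with centred arrays. All probe sets mean more features tested, and 2 groups alone mean fewer arrays; otherwise the cause was not tested.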
